A study of Mus musculus with 6 samples.

Results

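Genes that code for the Smad proteins and their corepressors Ski and Skil were examined in cultured mouse mesangial cells, contractile primary cells that hold together the capillary loops of the kidney glomerulus. The 10 members (Smad1, Smad2, Smad3, Smad4, Smad5, Smad6, Smad7, Smad9, Ski and Skil) were taken by name out of 22380 protein-coding genes, by a rule that uses no measured value, although earlier results of these data were known when it was set. DNA methylation was profiled by MeDIP-seq, in which an antibody against methylated cytosine pulls down sheared genomic DNA for sequencing. There were 3 control samples, labelled as such with no further description, and 3 samples given transforming growth factor β1 (TGF-β1) at 10 ng/ml over 72 h. The medium of the cells held 25.5 mM glucose and 20% fetal bovine serum, and cells of passages 3 to 6 were used. The study calls the replicates biological, without saying whether they came from separate animals or cultures, and the p-values below measure the spread between these samples.

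Peak calling used 10319496, 9407103 and 11494356 reads for the controls (replicates 1, 2 and 3), and 12748318, 12634300 and 13291419 reads for the TGF-β1 samples in the same order. Every TGF-β1 sample was deeper than every control sample, so the effects of depth and of treatment on a count of peaks cannot be told apart. A peak was counted for a gene when its summit lay in the gene or within 5 kb on either side, and peaks of different samples that shared at least 1 bp were joined into 1 region. The pileup is the number of reads over the summit, and a sample without a peak in a region may still have had reads there, too few to be called. The windows of the 10 genes held 95 of 170444 regions.

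Smad proteins carry the signal of TGF-β family receptors to the nucleus. Smad2 and Smad3 are phosphorylated by TGF-β and activin receptors, Smad1, Smad5 and Smad9 by receptors for bone morphogenetic proteins (BMPs), and both classes join Smad4 before they bind DNA. Smad6 and Smad7 inhibit the pathway, and Ski and Skil (also called SnoN) bind Smad complexes and hold their targets silent. In mesangial cells this pathway is known for driving the production of extracellular matrix. Methylation of CpG dinucleotides at a promoter is generally linked to silencing, while methylation within the body of a gene is common in genes that are transcribed.

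Reference sequence around the summits of 5 regions is shown because the results below turn on them. The first 3 are the tallest regions called in all 6 samples at Smad1, Smad5 and Smad9, and the last 2 are the regions at Smad3 and Smad6 that were called in every TGF-β1 sample and no control sample. The Smad6 region is neither among the tallest nor at a promoter, and it was added because it belongs to this second kind. All are on the plus strand of NCBIM37, the assembly also known as mm9, and capitals mark CpG, the dinucleotide whose cytosine is methylated in mouse cells.
Smad1, coding exon 6: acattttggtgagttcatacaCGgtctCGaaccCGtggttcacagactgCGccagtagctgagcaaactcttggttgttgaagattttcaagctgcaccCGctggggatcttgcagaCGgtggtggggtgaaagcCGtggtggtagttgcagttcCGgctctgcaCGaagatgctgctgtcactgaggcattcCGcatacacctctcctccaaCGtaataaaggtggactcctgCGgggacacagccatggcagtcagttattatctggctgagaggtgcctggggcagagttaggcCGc
Smad5, intron 1: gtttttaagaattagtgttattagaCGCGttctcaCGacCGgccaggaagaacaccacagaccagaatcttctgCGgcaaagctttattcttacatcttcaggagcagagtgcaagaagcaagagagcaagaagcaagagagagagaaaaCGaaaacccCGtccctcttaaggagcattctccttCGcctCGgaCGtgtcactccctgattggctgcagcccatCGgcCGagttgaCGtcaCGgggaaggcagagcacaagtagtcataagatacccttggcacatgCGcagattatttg
Smad9, intron 1: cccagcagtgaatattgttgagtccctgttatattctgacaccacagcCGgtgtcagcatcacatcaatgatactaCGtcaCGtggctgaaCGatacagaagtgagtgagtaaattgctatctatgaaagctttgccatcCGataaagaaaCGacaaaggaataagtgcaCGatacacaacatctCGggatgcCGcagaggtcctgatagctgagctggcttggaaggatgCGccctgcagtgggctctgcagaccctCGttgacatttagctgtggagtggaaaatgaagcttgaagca
Smad3, intron 4: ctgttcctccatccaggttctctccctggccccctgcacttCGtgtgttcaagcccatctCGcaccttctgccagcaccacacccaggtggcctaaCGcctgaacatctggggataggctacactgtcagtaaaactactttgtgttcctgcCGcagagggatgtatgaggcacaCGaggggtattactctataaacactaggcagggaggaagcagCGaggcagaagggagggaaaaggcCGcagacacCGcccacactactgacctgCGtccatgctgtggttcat
Smad6, downstream: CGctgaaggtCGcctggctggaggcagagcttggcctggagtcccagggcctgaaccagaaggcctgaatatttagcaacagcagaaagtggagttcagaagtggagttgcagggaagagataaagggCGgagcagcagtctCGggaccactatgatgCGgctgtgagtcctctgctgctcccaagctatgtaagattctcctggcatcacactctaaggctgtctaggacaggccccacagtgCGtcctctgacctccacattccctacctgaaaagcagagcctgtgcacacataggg
These stretches lie at chr8:81867579-81867878 with 13 CpG, chr13:56814227-56814526 with 15 CpG, chr3:54573057-54573356 with 11 CpG, chr9:63513689-63513976 with 9 CpG and chr9:63796198-63796497 with 6 CpG. The Smad3 stretch is 288 bases long, because it was ended where an annotated untranslated region begins, and the others are 300 bases long.

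Most summits lay inside the genes, but so did most of each window, which added only 5 kb on either side. No expected split by element was worked out, so the counts below are not read as a trait of these genes. Of the 95 regions, 64 had their summit in an intron, 13 in a coding exon, 4 in a 3′ untranslated region, 8 upstream and 6 downstream of the main transcript. The 25 regions called in all 6 samples (26.3%) were close to the 24.5% of all regions, and the 25 called in 1 sample (26.3%) were close to the genome-wide 27.3%. Every gene but Ski had at least 1 region in all 6 samples. Smad1 had 8 of them, Smad2, Smad4 and Smad7 had 3 each, Smad3, Smad5 and Smad9 had 2 each, and Smad6 and Skil had 1 each. Over the genome, 10741 of the 22380 protein-coding genes had at least 1 region in all 6 samples. Longer genes have longer windows, and length was not taken into account in these counts. The member regions had a median CpG content of 2.41 per 100 bp and a median GC content of 48.2%, against 2.37 per 100 bp and 47.9% over all regions.

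**Figure D1:**
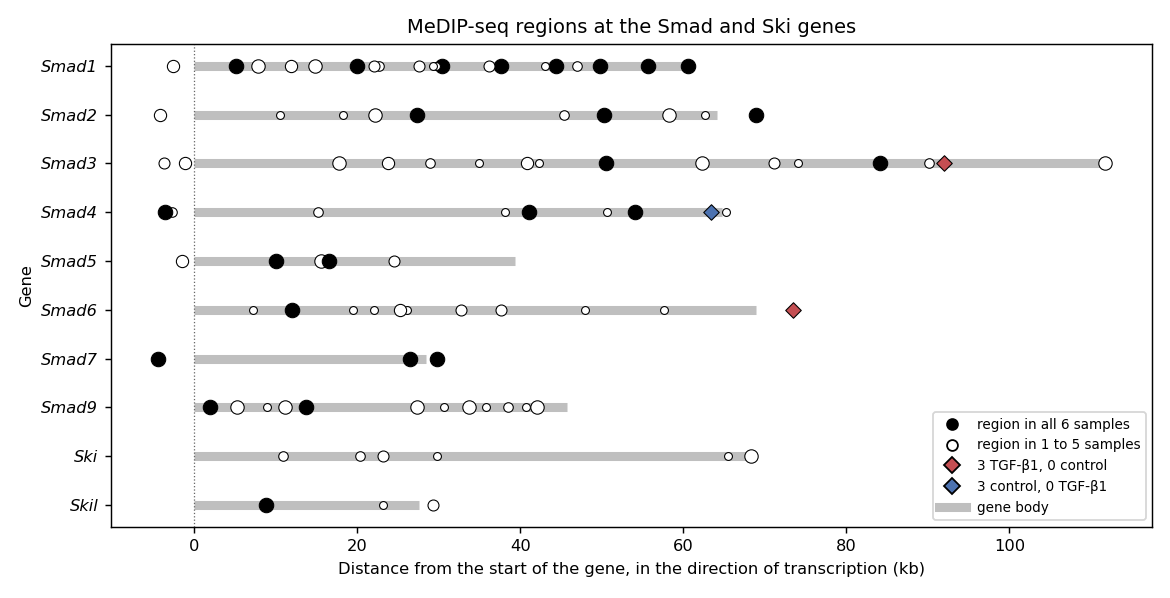
Regions at each gene (rows), by the distance of the summit from the start of the gene in kb, in the direction of transcription, where marker size grows with the number of samples in which the region was called and grey bars are gene bodies. No region lies at the start of any of the 10 genes, and the single-group regions (diamonds) of Smad3, Smad4 and Smad6 lie toward or beyond the end of the gene.

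None of the 10 genes had a called summit within 1 kb of the start of its main transcript, as was so for 86.1% of the 22372 protein-coding genes looked at in the same way. The nearest summit to that start lay 1156 bp away at Smad3, 1498 bp at Smad5, 1985 bp at Smad9, 2643 bp at Smad1, 2696 bp at Smad4, 4209 bp at Smad2, 4410 bp at Smad7, 7272 bp at Smad6, 8830 bp at Skil and 10929 bp at Ski. The starts were rich in CpG, from 23 CpG in the 300 bases around the start of Smad1 to 66 at Ski, and the observed to expected CpG ratio ran from 0.753 at Smad3 to 1.19 at Ski. Counting every protein-coding transcript start, only Smad3 had a promoter region called in at least 3 samples, at the start of an internal transcript that is described with Smad3. The share over all protein-coding genes was 12.9%. Among genes whose main start had an observed to expected ratio above 0.6, as all 10 members had, the share was 12.3%.

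The 250 bases before the main transcript start are shown for Ski and Smad1, the members with the most and the fewest CpG there among those whose sequence is given, on the minus strand on which both genes lie.
Ski: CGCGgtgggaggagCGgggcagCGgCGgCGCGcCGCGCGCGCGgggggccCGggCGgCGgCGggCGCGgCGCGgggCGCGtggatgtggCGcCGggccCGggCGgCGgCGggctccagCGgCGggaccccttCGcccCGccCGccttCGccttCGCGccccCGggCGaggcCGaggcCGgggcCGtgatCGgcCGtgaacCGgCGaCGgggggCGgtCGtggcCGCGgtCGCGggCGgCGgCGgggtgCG
Smad1: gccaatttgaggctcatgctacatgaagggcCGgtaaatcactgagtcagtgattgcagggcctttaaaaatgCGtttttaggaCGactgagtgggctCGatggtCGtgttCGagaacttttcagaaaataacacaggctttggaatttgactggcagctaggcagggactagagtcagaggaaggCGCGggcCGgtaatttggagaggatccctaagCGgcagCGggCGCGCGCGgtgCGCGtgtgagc
The Ski stretch (NCBIM37, chr4:154596702-154596951) holds 56 CpG and the Smad1 stretch (chr8:81923418-81923667) holds 17. No sample had a summit in either.

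Peaks at the 10 genes together numbered 46, 51 and 61 in controls and 61, 60 and 61 with TGF-β1. Control replicate 3 had as many as the highest TGF-β1 samples, and control replicates 1 and 2 had fewer. Controls averaged 52.7 ± 7.64 peaks and TGF-β1 samples 60.7 ± 0.577 peaks (SD, n = 3 each), a difference of 8.0 peaks. Scaled to depth, the order of the means turned, from 5.06 ± 0.527 peaks per 1000000 reads in controls to 4.71 ± 0.104 with TGF-β1 (SD, n = 3 each). When the same number of peaks was kept in every sample, the 81473 with the highest −log10 q (the length of the shortest list), the means were 49.3 ± 4.16 and 52.0 ± 2.65 peaks (SD, n = 3 each).

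By gene, 6 of the 10 members had a higher mean in TGF-β1 samples, 1 a lower mean and 3 equal means. Smad3 was the only member whose groups did not overlap, and it was higher with TGF-β1. Over the 17962 genes with at least 1 peak, 3.94% had every TGF-β1 sample above every control sample and 0.345% the reverse. No gene could pass adjustment in this design, since the exact permutation test of 3 samples against 3 gives no p below 0.1, and the smallest adjusted p over all genes was 1.0.

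**Figure D2:**
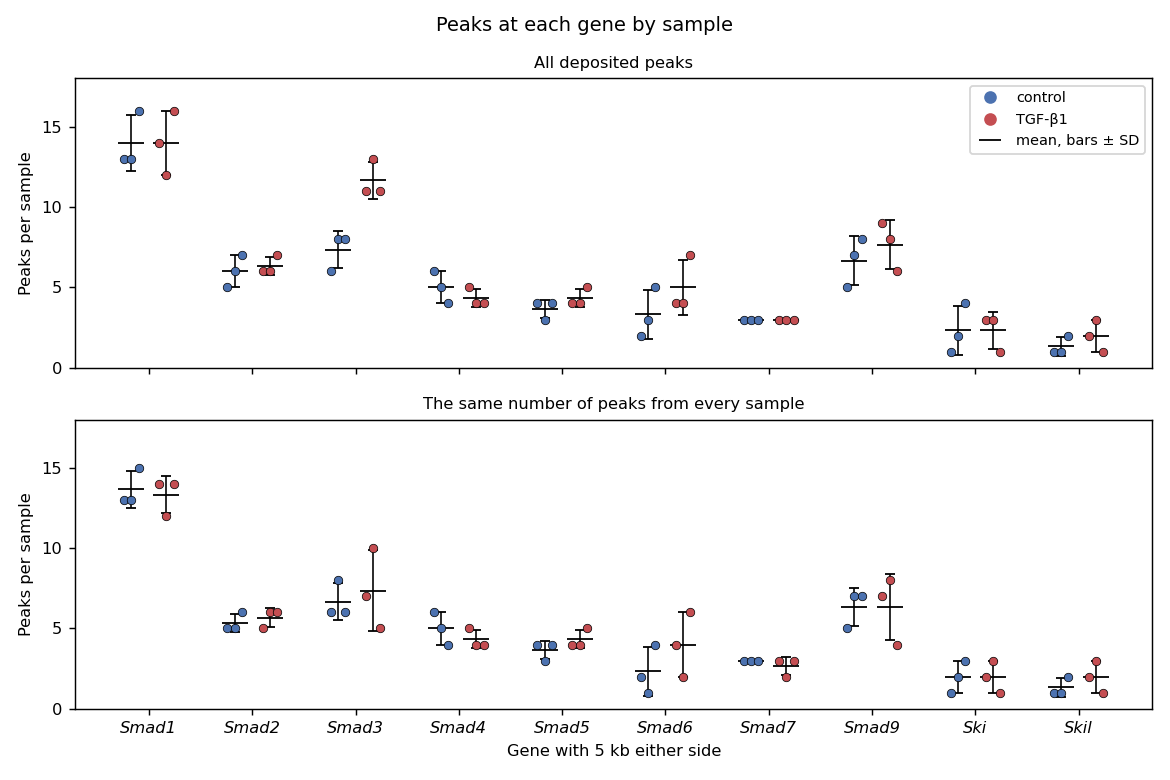
Number of peaks per sample (y axis) at each gene with 5 kb either side (x axis), where points are samples, lines the mean and bars the SD of 3 samples. In the upper panel, with all deposited peaks, the groups are apart at Smad3 alone; in the lower panel, with 81473 peaks kept from every sample, they overlap at every gene.

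Smad3, a signal carrier of TGF-β receptors, had 6, 8 and 8 peaks in controls and 11, 13 and 11 with TGF-β1. Each TGF-β1 sample was above each control sample. The means were 7.33 ± 1.15 and 11.7 ± 1.15 peaks (SD, n = 3 each), a difference of 4.33 peaks (p = 0.1 by an exact permutation test, two-sided, which is the smallest p of this design, and adjusted p = 1.0). The separation was lost when depth was taken into account. Per 1000000 reads, Smad3 had 0.581, 0.850 and 0.696 peaks in controls and 0.863, 1.03 and 0.828 peaks in TGF-β1 samples, and the groups overlapped. With the same number of peaks kept in every sample, Smad3 had 6, 8 and 6 peaks in controls and 7, 10 and 5 peaks in TGF-β1 samples.

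The 16 regions of Smad3 were low, with pileups from 12 to 31 reads and a median of 17, the lowest median of the 10 genes. Both regions in all 6 samples lay in intron 1. The taller of them (chr9:63555073-63555481) had 21, 16 and 26 reads in controls and 19, 23 and 27 reads in TGF-β1 samples, with interleaved groups (log2 fold change −0.0778, SE 0.219, limma adjusted p = 0.999). The other (chr9:63521472-63521865) had 18, 17 and 26 reads against 21, 20 and 24 (log2 fold change −0.11, SE 0.213, limma adjusted p = 0.999).

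One region of Smad3 was called in the 3 TGF-β1 samples and in no control sample. It lies at chr9:63513575-63514072, with a summit in intron 4 beside a coding exon that the region overlaps, and its sequence is the fourth shown above. Its pileup was 19, 14 and 17 reads in TGF-β1 replicates 1, 2 and 3. These are low peaks. The lowest pileups called elsewhere at Smad3 were 13, 14 and 14 reads in the controls. The summit is 515 bp inside the start of a shorter transcript, Smad3-005, whose status in GENCODE is putative, which makes it the promoter region counted above. Of all regions, 0.948% were called in 3 TGF-β1 and 0 control samples. The region was no longer called in all 3 TGF-β1 samples when peaks needed a −log10 q or a fold enrichment of 5 or more, or with the same number of peaks in every sample.

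Smad2, the other carrier of TGF-β and activin signals, had 5, 6 and 7 peaks in controls and 6, 6 and 7 peaks in TGF-β1 samples. The groups overlapped almost fully. Its tallest shared region, in intron 2 (chr18:76428174-76428878), had 38, 36 and 47 reads in controls and 45, 45 and 41 reads in TGF-β1 samples, with no separation of the groups (log2 fold change −0.0994, SE 0.172, limma adjusted p = 0.999). The Smad2 region with the smallest p, in intron 5 (chr18:76451277-76451688), had 22, 29 and 21 reads against 16, 22 and 30 (log2 fold change −0.34, SE 0.234, limma adjusted p = 0.999). As a mean over its 3 shared regions, Smad2 had a log2 fold change of −0.22 (SE 0.122, limma adjusted p = 0.990).

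Smad1, a carrier of BMP signals, held the most peaks and the tallest ones. It had 13, 13 and 16 peaks in controls and 14, 12 and 16 peaks in TGF-β1 samples, so that the means were equal, at 14 peaks. Its density of 19.7 peaks per 100 kb was at or above that of 99.0% of protein-coding genes, whose median was 5.18. The median pileup of its 84 peaks over the 6 samples was 37.0 reads, against 17.0 to 32.0 at the other 9 genes. The local background, the number of reads that the peak caller expects at the summit, was also highest there, with a median of 6.16 reads against 1.97 to 3.85 at the other members, and the median fold enrichment of 5.43 was the lowest of the 10 genes. Peaks were called without input, so this background comes from the same reads as the peaks. It was worked out from their pileup and fold enrichment and is not independent of either. Smad1 lies on chromosome 8, which ranked first of 21 chromosomes in median local background (3.11 reads) and in peaks per Mb (53.7). The part of the local background in the height and number of the Smad1 peaks was not tested.

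**Figure D3:**
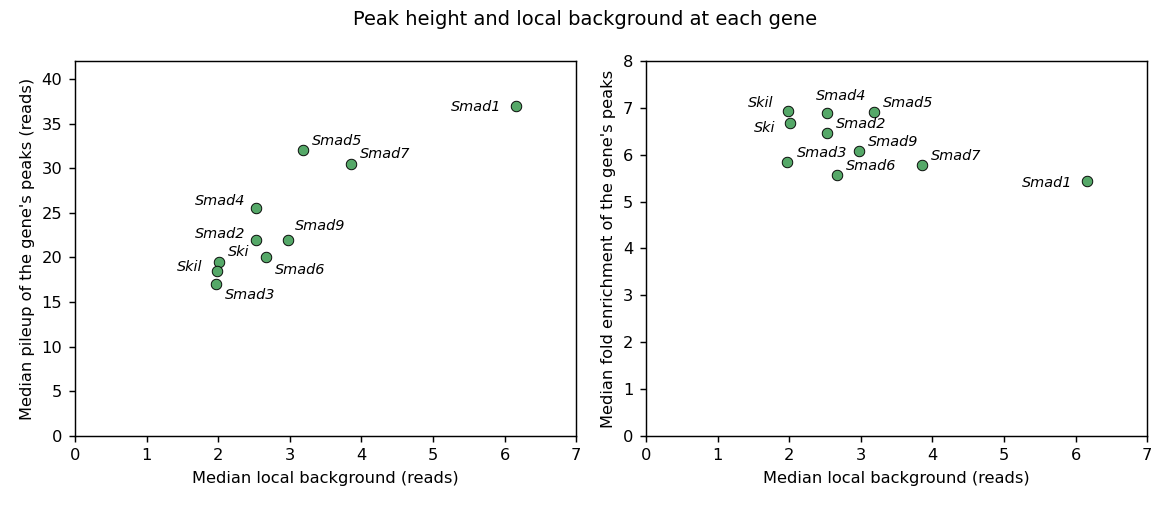
Median pileup (left, reads) and median fold enrichment (right) of the peaks of each gene over the 6 samples, against the median local background in reads. Smad1 stands at the far right with the highest pileup (37.0 reads) and the lowest fold enrichment (5.43). The background was worked out from the pileup and fold enrichment of the same peaks, so the 2 axes of each panel are not independent.

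The tallest shared region of all 10 genes was in coding exon 6 of Smad1 (chr8:81867409-81867998), the first sequence shown above. It had 31, 69 and 79 reads in controls and 87, 76 and 84 reads in TGF-β1 samples. Control replicate 1 stood far below the other 5 samples, and the control values (59.7 ± 25.3 reads, SD, n = 3) reached the TGF-β1 range (82.3 ± 5.69 reads, SD, n = 3). The log2 fold change was 0.35 (SE 0.192, limma adjusted p = 0.999), and without control replicate 1 it was −0.0289.

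Of the 8 shared Smad1 regions, 3 had an unadjusted limma p below 0.05 (4.18% of all shared regions had), and their fold changes differed in sign. The region in the last exon, in the 3′ untranslated region (chr8:81862629-81863076), had 36, 31 and 34 reads in controls and 29, 28 and 28 reads in TGF-β1 samples. Every TGF-β1 sample was below every control sample. The log2 fold change was −0.47 (SE 0.193, unadjusted p = 0.0208, limma adjusted p = 0.999), the smallest p of the 25 shared regions. Without control replicate 1 or TGF-β1 replicate 3 the unadjusted limma p was 0.0810 and 0.0657. The region in intron 3 had 38, 36 and 61 reads against 35, 40 and 44, with interleaved groups and a log2 fold change of −0.37. The one in intron 2 had 41, 44 and 40 reads against 57, 62 and 65, without overlap, and a log2 fold change of 0.33. With the replicate block neither of these intron regions had an unadjusted p below 0.05. The mean over all 8 regions was level between the groups, with a log2 fold change of −0.0502 (SE 0.0979, limma adjusted p = 0.9999).

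At Smad5 and Smad9, which also serve BMP receptors, the groups overlapped in peaks and in every shared region. Smad5 had 4, 3 and 4 peaks in controls and 4, 4 and 5 peaks in TGF-β1 samples. Its tallest region, in intron 1 (chr13:56814040-56814642), the second sequence shown above, had 34, 30 and 50 reads against 54, 39 and 37, with the groups interleaved (log2 fold change −0.0185, SE 0.191, limma adjusted p = 0.999). Whether this region, or any other region named here, lies in a repeated element of the genome was not examined. A second shared region of the same intron (chr13:56820707-56821400) was dense in CpG, with 4.76 per 100 bp, and had a log2 fold change of 0.0326 (SE 0.188).

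Smad9 had 5, 7 and 8 peaks in controls and 9, 8 and 6 peaks in TGF-β1 samples, which overlapped. With 12.9 peaks per 100 kb it was, after Smad1, the densest member. Its tallest region, in intron 1 (chr3:54572976-54573486), the third sequence shown above, had 40, 30 and 46 reads in controls and 52, 39 and 36 reads in TGF-β1 samples (log2 fold change −0.0879, SE 0.189, limma adjusted p = 0.999). Its other shared region, nearer the start of the gene (chr3:54561287-54561849), had 18, 17 and 24 reads against 20, 24 and 31 (log2 fold change 0.12, SE 0.217, limma adjusted p = 0.999). The groups overlapped at both. The window of Smad9 reaches into those of its neighbours Alg5 and Rfxap, as that of Smad3 does into Aagab, so peaks at these edges may belong to more than 1 gene.

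Smad4, the common partner, was the only member with fewer peaks on average with TGF-β1. It had 6, 5 and 4 peaks in controls and 5, 4 and 4 peaks in TGF-β1 samples, and the groups overlapped. It also held the only region called in the 3 control samples and in no TGF-β1 sample, in coding exon 12 (chr18:73799981-73800334), with 15, 16 and 18 reads. Of all regions, 0.233% were called in 3 control and 0 TGF-β1 samples. The region kept this pattern when peaks needed a −log10 q or a fold enrichment of 5 or more and with the same number of peaks in every sample. The control samples were the shallower ones. Over the genome the TGF-β1 samples had called peaks down to 9, 9 and 10 reads. At Smad4, however, the lowest pileups called in TGF-β1 replicates 1, 2 and 3 were 21, 30 and 22 reads. Whether the calling threshold played a part was not tested.

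At the 3 shared regions of Smad4 the log2 fold change was positive, and none passed adjustment. The region in coding exon 9 (chr18:73809202-73809653) had 24, 15 and 27 reads in controls and 34, 36 and 36 reads in TGF-β1 samples, each TGF-β1 sample above each control sample. The log2 fold change was 0.50 (SE 0.212, unadjusted p = 0.0235, limma adjusted p = 0.999), the highest of the 25 shared regions. Without control replicate 2 it was 0.29 (limma unadjusted p = 0.190). In coding exon 5 (chr18:73822209-73822956) it had 17, 36 and 60 reads against 61, 51 and 42, where control replicate 1 was far below the rest (log2 fold change 0.39, SE 0.246, limma adjusted p = 0.999), and without that sample the log2 fold change was −0.0571. The mean over its 3 shared regions had a log2 fold change of 0.32 (SE 0.184, limma adjusted p = 0.997).

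The inhibitory Smads differed from each other in how steadily regions were called. All 3 regions of Smad7 were called in every sample, so that it had 3 peaks in each of the 6. Smad6 had 11 regions, of which 6 were called in 1 sample, and its peaks numbered 2, 3 and 5 in controls and 4, 4 and 7 in TGF-β1 samples, with overlap. Its shared region, in intron 2 (chr9:63857695-63858298), had 11, 13 and 22 reads in controls and 17, 20 and 26 reads in TGF-β1 samples (log2 fold change 0.27, SE 0.226, limma adjusted p = 0.999). The groups overlapped through control replicate 3.

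Smad6 held the other region called in all TGF-β1 samples and no control sample. It lies 4605 bp beyond the end of the gene (chr9:63796130-63796507), the fifth sequence shown above, and had 18, 12 and 15 reads. Like the Smad3 region, it was low, and it was no longer called in all 3 TGF-β1 samples when peaks needed a −log10 q or a fold enrichment of 5 or more, or with the same number of peaks in every sample.

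The regions of Smad7 were moderate in height and lay outside the promoter. The tallest, in coding exon 4 (chr18:75553413-75553888), had 20, 28 and 48 reads in controls and 37, 45 and 32 reads in TGF-β1 samples, and control replicates spanned more than the TGF-β1 samples did (log2 fold change 0.11, SE 0.221, limma adjusted p = 0.999). The one with the smallest p, 4410 bp upstream (chr18:75522519-75523082), had 19, 27 and 32 reads against 27, 19 and 31 (log2 fold change −0.24, SE 0.220, limma adjusted p = 0.999).

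The corepressor genes carried the fewest peaks. Ski had 1, 2 and 4 peaks in controls and 3, 3 and 1 peaks in TGF-β1 samples, and Skil had 1, 1 and 2 against 2, 3 and 1. Ski had the lowest density of the members, 2.97 peaks per 100 kb, although its start is the richest in CpG. No Ski region was called in all 6 samples; its most frequent one, in the 3′ untranslated region (chr4:154528212-154528566), had 18 and 21 reads in control replicates 1 and 2 and 21, 20 and 18 reads in the TGF-β1 samples. It was not called in control replicate 3.

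Skil had the only gene-level value with an unadjusted p below 0.05 among the 9 members tested, where 4.87% of all 10741 genes tested had such a p. It rests on 1 region, in intron 2 (chr3:31002610-31003022), which had 19, 15 and 19 reads in controls and 28, 32 and 25 reads in TGF-β1 samples. Each TGF-β1 sample was above each control sample, with means of 17.7 ± 2.31 and 28.3 ± 3.51 reads (SD, n = 3 each). The log2 fold change of the centred pileup was 0.46 (SE 0.162, unadjusted p = 0.0201, limma adjusted p = 0.982 at the gene level), and with the region-level estimate of the spread the unadjusted p was 0.0415 and the adjusted p 0.999. The fold enrichment of the same region was 7.82, 6.62 and 7.25 in controls and 9.75, 11.1 and 8.32 in TGF-β1 samples, also without overlap. Without control replicate 2 or TGF-β1 replicate 2 the unadjusted p at the gene level was no longer below 0.05 (0.0686 and 0.0869).

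Over the 25 shared regions of the 10 genes, 12 had a positive and 13 a negative log2 fold change, with a median of −0.0185 against −0.00471 over all 41744 shared regions. None passed at an adjusted p below 0.05, nor did any region of the genome (0 of 41744, 0%), where the smallest adjusted p was 0.677. At an unadjusted p below 0.05 there were 5 member regions (20.0%), 3 of Smad1 and 1 each of Smad4 and Skil, 3 higher and 2 lower with TGF-β1, against 4.18% of all shared regions. Regions of 1 gene share their neighbourhood and are not independent, and without single samples between 1 and 4 of these 5 still had such a p. At the gene level, 5 of 9 tested members had a positive and 4 a negative log2 fold change, with 1 at an unadjusted p below 0.05, against 4.87% of 10741 genes and 0% at an adjusted p below 0.05.

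**Figure D4:**
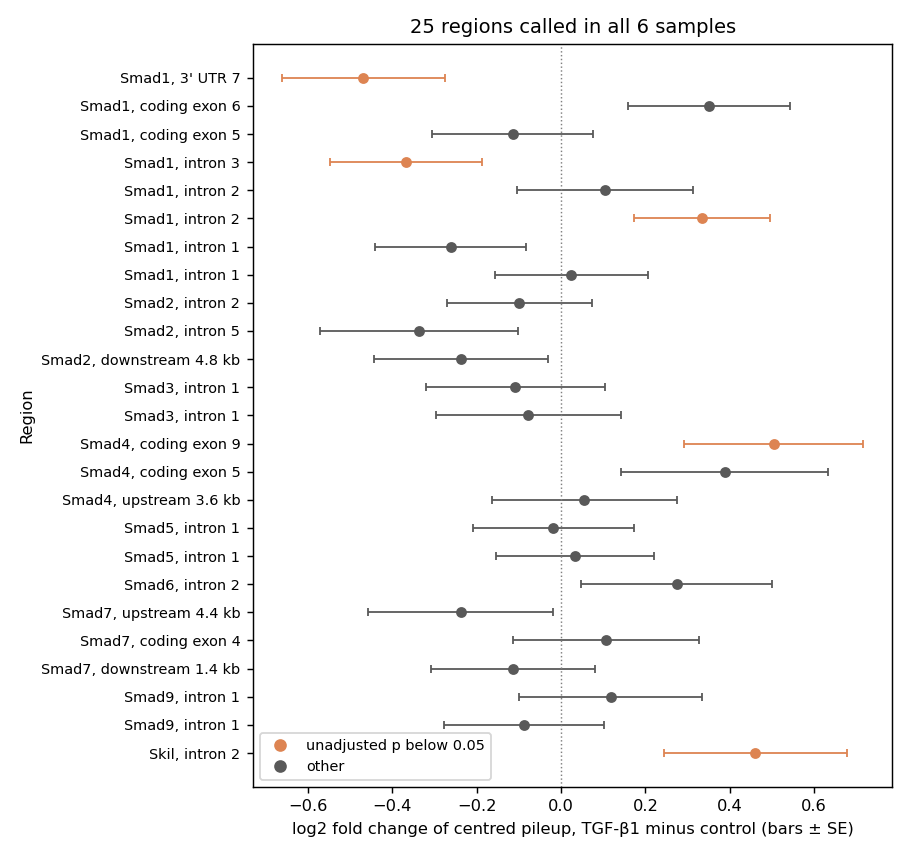
Log2 fold change of the median-centred pileup, TGF-β1 minus control (x axis, bars are the SE), of the 25 regions called in all 6 samples (rows, named by gene and element). Values lie between −0.47 and 0.50 on both sides of 0, and the 5 with an unadjusted p below 0.05 (orange) belong to Smad1, Smad4 and Skil.

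The 20 other genes of the pathway, among them the receptors, ubiquitin ligases of the Smurf and Nedd4 family, a phosphatase and coactivators, held 123, 117 and 142 peaks in controls and 138, 144 and 146 peaks in TGF-β1 samples. The groups overlapped through control replicate 3. In 13 of the 20 the mean was higher with TGF-β1, in 5 lower and in 2 equal, and 2 had non-overlapping groups, both higher (3.94% of all genes with peaks were higher in this way), namely Ep300, a coactivator (3, 2 and 2 against 4, 4 and 6 peaks), and Usp15, a deubiquitinase (6, 5 and 7 against 8, 8 and 10 peaks). Per 1000000 reads the order of the means turned here too, with 12.2 ± 0.278 in controls and 11.1 ± 0.295 in TGF-β1 samples (SD, n = 3 each). Ep300 and Usp15 were also higher without overlap per 1000000 reads, as 1.87% of all genes were. Their counts with the same number of peaks kept in every sample were not examined. Nedd4l, a ubiquitin ligase that acts on activated Smads, and Wwp2, another ligase, had the most peaks, 39.2 and 16.0 per sample on average. Bambi, a decoy receptor, had 0 peaks in every sample, and Tgif1, a repressor of Smad targets, and Foxh1, a DNA-binding partner of Smads, had 1.17 each. These counts are not scaled to length. The windows were 340 kb at Nedd4l, 132 kb at Wwp2, 18.4 kb at Bambi, 19.3 kb at Tgif1 and 11.7 kb at Foxh1. Per 100 kb, Nedd4l had 11.5 peaks, Wwp2 12.1, Tgif1 6.03 and Foxh1 10.0. Nedd4l was the only one of the 20 with regions of 1 group only, 1 called in 3 TGF-β1 samples and 1 in 3 control samples. Of all regions, 0.948% and 0.233% were of these kinds, and Nedd4l held 67 of the 236 regions of the 20 genes. A promoter region in at least 3 samples was found at 4 of these genes (Smurf2, Nedd4l, Ppm1a and Foxh1), where 12.9% of all protein-coding genes had one. None of the 17 tested at the gene level passed adjustment, and 1 had an unadjusted p below 0.05, against 4.87% of all genes. It was Tgfbr2, the type II receptor (log2 fold change −0.30, SE 0.112, limma adjusted p = 0.982).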

How the data were processed

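Deposited MeDIP-seq peaks of 6 mesangial cell samples were used. As the methods and file headers state, the authors mapped reads to mm9 with BWA (version not given in the sources used here), kept uniquely mapped reads once per start position, and called peaks in each sample with MACS2 2.1.0.20150731, without input, at a q cutoff of 0.01. The authors' pileup is a signal value with no depth scaling by them. Fold enrichment, as deposited, is a ratio to the local background, from which the background was worked out as (pileup + 1) divided by the fold enrichment, minus 1. Each deposited p-value and q-value is given as −log10. The study tested read counts of regions, which the peak lists do not give, so limma was run on pileups instead.

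Members, gene lists and tests were chosen with earlier results of these data known. Genes, transcripts and sequence came from GENCODE vM1 and NCBIM37. Peaks sharing at least 1 bp became 1 region, as checked with bedtools 2.31.1. The log2 of the highest pileup per region, centred on the median of each sample, was tested with limma 3.58.1 (lmFit, eBayes with a trend) in R 4.3.3 over the 41744 regions called in all 6 samples, and per gene as the mean over its shared regions, with Benjamini-Hochberg adjustment over all of them. Regions with no peak in a sample entered limma only in the alternative with imputation. For peaks per gene the test was an exact permutation test, two-sided, in Python 3.11.15. The limma script was tested on simulated data. A main transcript is the one numbered 001. Regions named singly were, per gene, the shared one with the highest mean pileup and the one with the smallest limma p, promoter regions in at least 3 samples and regions of 1 group only; 2 further Smad1 regions and the most frequent Ski region were named after their values were seen. Of the pathway genes, those with the most and fewest peaks and with regions of 1 group were named by rule, and Ep300, Usp15, Tgfbr2, Smurf2, Ppm1a and Foxh1 after their values were seen. Precision is limited by 9407103 to 13291419 reads per sample. Alternatives were stricter peaks, other flanks, joins and promoters, scaling to depth, GC content, fold enrichment, imputation, the replicate block and leaving out each sample; keeping the same number of peaks in every sample was added after the data were seen.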

Additional observations from a re-analysis of the deposited data

How the results depend on the processing

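No member region passed an adjusted p below 0.05 in limma under any normalization, the replicate block, imputation or the loss of any sample. No member gene did per 1000000 reads, with GC centring, the replicate block or the loss of any sample; quantile normalization, fold enrichment and imputation were not run for genes. The count of regions in all samples stayed between 18 and 32 (without single samples, 25 to 32). Leaving out a sample cannot lower this count, because a peak is then needed only in the samples that remain. Peaks per 1000000 reads turned the difference over the 10 genes to −0.354 peaks per 1000000 reads, that of Smad2 to −0.0864, of Smad5 to −0.0160 and of Smad9 to −0.0447, and left 0 genes higher and 2 genes (Smad1 and Smad7) lower in all TGF-β1 samples, where 14.7% of all genes were lower. Smad7 had 3 peaks in every sample, so the division by the greater depth of the TGF-β1 samples alone makes it lower. At a fold enrichment of at least 5, 2 genes did not overlap (Smad3 higher, as 2.32% of all genes, and Smad1 lower, as 0.732%), Smad9 turned to −1.0 peaks, and there were 2 control-only and 0 TGF-β1-only regions. At a −log10 q of at least 5 there were 0 TGF-β1-only regions and 0 genes with a promoter region. With the same number of peaks in every sample, 0 genes were without overlap, where 1.5% of all genes were higher and 1.29% lower with TGF-β1. There were then 0 TGF-β1-only regions and 0 promoter genes. With promoters of 2 kb upstream there were 2 promoter genes (Smad3 and Smad5). Shares over all regions and all promoters are not given for these alternatives, so nothing is read from these counts about the members. The cause of the changes was not tested. At this depth a region just under the calling threshold cannot be told from one without methylation.

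The replicate numbers did not pair the samples (correlations of deviations of −0.0464, 0.0432 and −0.130 for numbers 1, 2 and 3). With the replicate block, the difference over the 10 genes was 8.0 peaks, 2 genes (Smad3 and Smad6) had 3 differences above 0, as 8.3% of all genes had, 3 member regions had an unadjusted p below 0.05 against 5 (3.67% against 4.18% of all regions), and 5 with GC centring as well; Skil was the 1 gene in both. There were 2 such regions per 1000000 reads and 2 with fold enrichment, where 6.23% and 4.41% of all regions had such a p. Quantile normalization gave 6 (4.33% of all regions), with exon 6 of Smad1 added. Imputation gave 4 of 60 (4.05%), 2 of them the same and 2 the regions of 1 group at Smad3 and Smad4. In the latter 2 every value of the other group was imputed, so their p was set by the imputation and nothing is read from it. Per 1000000 reads there were 2 such genes, Smad2 and Skil, where 7.48% of all genes had such a p against 4.87%. Without single samples there were 1 (without TGF-β1 replicate 2) to 5 regions and 0 (without control replicate 2 or TGF-β1 replicate 2) to 3 genes, where 3.19% to 5.93% of all regions and 3.80% to 6.44% of all genes had such a p. There were 1 to 2 genes without overlap, the second being Smad6 without control replicate 3, where 11% of all genes were higher. The difference of 8.0 peaks ranged from 4.67 (without control replicate 1) to 12.2 (without control replicate 3).

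Among single genes and regions, 389 repeats were of values with a direction. Of these, 354 kept it, 3 became 0 and 32 reversed, all of values with an adjusted p above 0.05. The other 39 were of the peak differences of 0 at Smad1, Smad7 and Ski, and 18 of them were not 0. With peaks of 5-fold enrichment or more, Smad1 came to −2.33, and without single samples Smad1 ran from −1.0 to 1.0 and Ski from −0.667 to 0.833. Per 1000000 reads, the log2 fold changes became −0.0840 at Smad5, −0.0763 at Smad9 and −0.0584 at the second Smad5 region. With fold enrichment, that region became −0.0737, the tallest Smad5 region 0.0437 and the intron 1 region of Smad3 nearer its end 0.0282. Without single samples, the peak difference at Smad2 ran from −0.167 to 0.833, and the log2 fold change from −0.0289 to 0.55 in exon 6 of Smad1, from −0.19 to 0.00489 and −0.22 to 0.0448 in intron 1 of Smad3, from −0.0571 to 0.74 in exon 5 of Smad4, from −0.20 to 0.13 and −0.07002 to 0.19 in intron 1 of Smad5, from −0.15 to 0.37 in exon 4 of Smad7, from −0.00779 to 0.26 and −0.25 to 0.0617 in intron 1 of Smad9. With the direction kept, the log2 fold change ran from −0.16 to −0.0127 in intron 2 and −0.52 to −0.12 in intron 5 of Smad2. It ran from 0.29 to 0.63 in exon 9 of Smad4, 0.11 to 0.49 in intron 2 of Smad6 and −0.41 to −0.0695 upstream of Smad7. The gene values ran from 0.20 to 0.48 at Smad4, 0.11 to 0.49 at Smad6, −0.20 to 0.00902 at Smad3, −0.0766 to 0.15 at Smad5, −0.21 to 0.0288 at Smad7 and −0.0811 to 0.0818 at Smad9.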
